A study of Mus musculus with 4 samples.

Results

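The liver releases proteins that act on other organs as hormones. RNA for 10 of them was followed here: Enho, Fgf21, Igfbp1, Igfbp2, Ahsg, Fetub, Lect2, Gdf15, Inhbe and Inhbc. The 10 names were chosen with earlier results of these data known. Every non-control probe whose gene name on the array was 1 of the 10 was taken. This gave 12 of 39429 probes and 10 of 30139 gene names. Enho and Igfbp2 had 2 probes each, and the other 8 genes had 1. All 12 probes were well above background in all 8 channels, and all 10 genes entered the test.

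The samples were RNA labelled AAV_Cre and RNA labelled AAV_Null, both from whole liver. The mice were females of strain C57B/6, aged 8 to 10 weeks. Every mouse was homozygous for a floxed Trib1 allele, AAV_Null mice included. Livers were taken 1 week after an adeno-associated virus (AAV), carrying Cre in the AAV_Cre mice and named AAV_Null in the control mice, and after a fast of 4 hours on a chow diet. Cre removes DNA between loxP sites, and Trib1 encodes a pseudokinase that brings the transcription factor C/EBPα to a ubiquitin ligase. The labels do not name the promoter that drives Cre or give the number of animals behind each RNA. A single slide with 4 Agilent 2-colour arrays was used, and each array held 1 RNA of each treatment. On arrays 1 and 2 the dye Cy5 marked AAV_Cre, and on arrays 3 and 4 Cy3 did.

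Enho encodes adropin, a small secreted peptide made in liver and brain and linked to glucose and fat metabolism. FGF21 is a hormone of fasting and stress that acts through an FGF receptor paired with the co-receptor β-Klotho. IGFBP1 and IGFBP2 bind insulin-like growth factors in blood, and insulin represses Igfbp1. Ahsg and Fetub encode the fetuins A and B, plasma proteins of the cystatin superfamily, and LECT2 is a secreted protein that binds receptors on endothelial and liver cells. GDF15 is a stress hormone that lowers appetite through a hindbrain receptor, and Inhbe and Inhbc encode the activin subunits βE and βC, which are made mainly by hepatocytes.

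The sequences below are those the Enho and Igfbp2 measurements rest on, with 3 promoter stretches that carry a searched motif. Both Enho probes lie at the 3′ end of the transcript on the minus strand of chromosome 4, and they share 43 of 60 bases. The 30 bases printed, chr4:41585249-41585278 (mm9), are in both probes, with the polyadenylation signal in capitals.
Enho: tgtttgttgggtAATAAAtggaactatggc
The Igfbp2 probe at chr1:72898677-72898736 (mm9, plus strand) reads as an open frame of 19 codons that ends in a stop codon, given in capitals. The other Igfbp2 probe, which represents the gene, starts further along the transcript, at chr1:72898813-72898872.
Igfbp2: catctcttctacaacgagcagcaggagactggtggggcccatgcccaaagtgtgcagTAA
Promoters came from RefSeq (GRCm38.p6), as 250 bases before to 50 after each start site, and 9 of the 10 genes matched, with 12 promoters. Enho was the gene without a promoter in this set, so no motif was searched for Enho. The motif TTGCATCA, bound by C/EBP and ATF factors, was searched on both strands and was in 294 of 32851 promoters, or 0.895%, among them those of Fgf21 and Inhbe. CAAAACAA, the insulin response element, was in 2.51% and, of the 9 genes, in Igfbp1. TTGCGCAA, a C/EBP palindrome that shares its first 4 letters with TTGCATCA, was in 0.183% and in none of the 9. A match is a description of letters, and binding was not measured. The 60 bases around each match, with the motif in capitals, lie at chr7:45615596-45615655 (minus), chr10:127351996-127352055 (minus) and chr11:7197653-7197712 (plus).
Fgf21 promoter: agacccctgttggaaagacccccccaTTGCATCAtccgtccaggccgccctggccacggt
Inhbe promoter: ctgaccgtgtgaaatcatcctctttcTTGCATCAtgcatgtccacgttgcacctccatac
Igfbp1 promoter: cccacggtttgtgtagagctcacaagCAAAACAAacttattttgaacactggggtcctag

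Trib1 was measured first as a check of the labels, and it was higher in RNA labelled AAV_Cre. Its gene probe had log2 levels of 13.34, 13.15, 13.07 and 13.02 in RNA labelled AAV_Cre on arrays 1 to 4, against 12.70, 12.13, 11.98 and 12.01 in RNA labelled AAV_Null. In limma the fitted log2 ratio was 0.94 ± 0.079 (SE, n = 4), a fold of 1.92, with an adjusted p of 0.0210, and it passed in none of the fits without 1 array. A second RefSeq probe gave 1.29 ± 0.11, and a probe of an Ensembl transcript gave -0.047 ± 0.049 (SE, n = 4 for both). The signal of the Ensembl probe was much weaker, with an average log2 intensity of 7.64 against 12.69 for the gene probe. Its ratio was below 0 on all 4 arrays, and the size depended on the processing. The scanner's own processed ratio gave -0.52, -0.066, -0.086 and -0.31 on arrays 1 to 4. The authors' deposited log2 values gave -0.29, -0.023, -0.074 and -0.25. Which exons are floxed is not stated in the labels, and probes that lie beyond the deletion give no check. Directions below therefore follow the labels, with AAV_Cre over AAV_Null.

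A log2 level below is the normalised log2 intensity of 1 dye channel, and a log2 ratio is AAV_Cre over AAV_Null on 1 array. The ratio was fitted with a dye effect in limma, genes were called at an adjusted p under 0.05 over 16081 genes, and the median SE of a log2 ratio was 0.063. Of the 10 genes, 1 fell, 0 rose and 9 did not pass. Over all genes, 0.976% fell (157 genes) and 1.78% rose (287 genes). Since the 10 genes were chosen with earlier results known, counts among them, here and below, are descriptions and no test against these shares. The median log2 ratio was -0.10 over the 10 genes and -0.0025 over all tested genes. At an unadjusted p under 0.05 there were 5 of the 10 (Enho, Igfbp1, Igfbp2, Fetub and Inhbe), against 22.6% of all genes. Each array gives 1 pair of RNAs, and 4 pairs allow an exact two-sided sign permutation p of 0.125 at the smallest. The calls therefore rest on the fit across all genes. In whole liver, fewer cells of a type and less RNA per cell cannot be told apart.

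Enho was lower in RNA labelled AAV_Cre on all 4 arrays, to 0.243 of its level in RNA labelled AAV_Null. Its gene probe, at chr4:41585228-41585287 (mm9, minus strand), had log2 levels of 12.71, 11.72, 12.15 and 11.12 in RNA labelled AAV_Cre, against 14.77, 14.05, 13.87 and 13.18 in RNA labelled AAV_Null. The groups did not overlap: the highest AAV_Cre level, on array 1, was below the lowest AAV_Null level, on array 4. Over all genes measured on 4 arrays, 2.66% had AAV_Cre levels wholly below the AAV_Null levels, 3.19% wholly above and 5.85% either. Enho was the 1 gene of the 10 without overlap. The levels averaged 11.93 ± 0.67 in RNA labelled AAV_Cre and 13.97 ± 0.65 in RNA labelled AAV_Null (SD, n = 4 each). The log2 ratios were -2.06, -2.32, -1.72 and -2.06 on arrays 1 to 4, so they spread less than the levels, which were highest on array 1 and lowest on array 4 in both treatments. The fitted log2 ratio was -2.04 ± 0.086 (SE, n = 4 arrays, 95% interval -2.27 to -1.82), a fold of 0.243 with an interval of 0.208 to 0.284, at an adjusted p of 0.00846. Among 16081 genes, 2 (Nox4 and Slc22a7) had a lower fitted log2 ratio.

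The other Enho probe, at chr4:41585245-41585304, gave the same direction on 4 of 4 arrays. It had log2 levels of 12.43, 11.68, 12.10 and 11.02 in RNA labelled AAV_Cre, against 14.79, 14.15, 13.94 and 13.28 in RNA labelled AAV_Null. Its log2 ratio was -2.23 ± 0.086 (SE, n = 4), a fold of 0.213, and its p adjusted over 20337 probes was 0.00891, where 2.37% of probes passed. Most of its bases are those of the gene probe, so it is no independent measurement of Enho. The mean log2 ratio of the gene probe was -2.19 with AAV_Cre in Cy5 and -1.89 with AAV_Cre in Cy3. When 1 array was left out, the log2 ratio stayed between -2.13 and -1.96, but the adjusted p passed 0.05 only without array 3. Without arrays 1, 2 and 4 the adjusted p for Enho was 0.0596, 0.0841 and 0.0619.

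**Figure D1:**
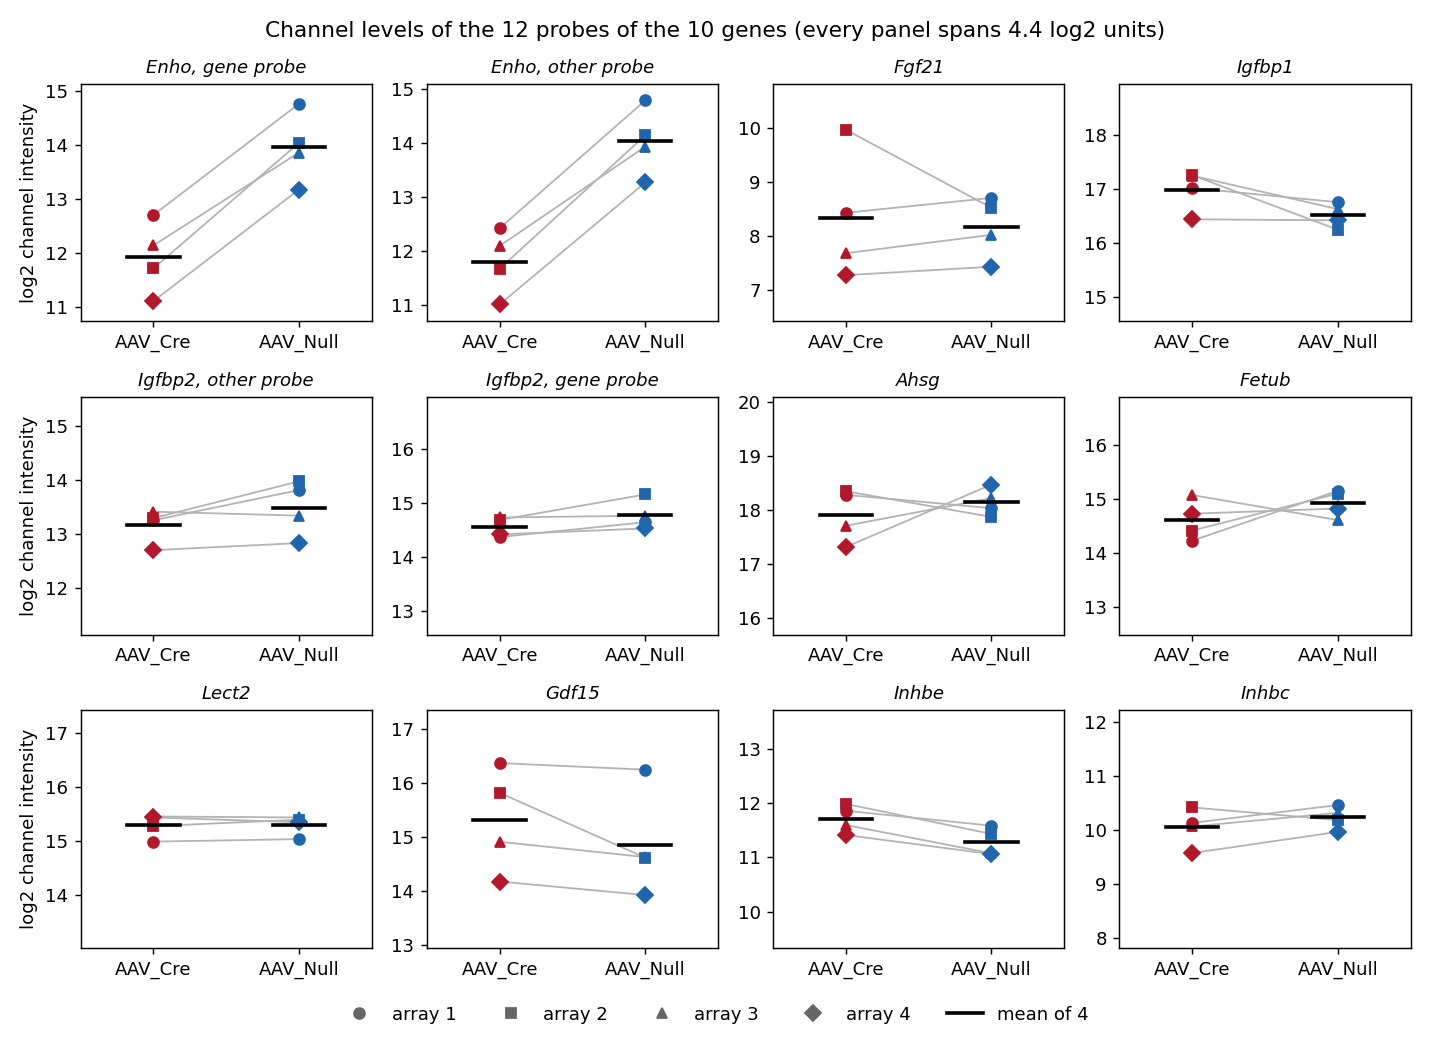
Normalised log2 channel intensity of each of the 12 probes in RNA labelled AAV_Cre (left, red) and RNA labelled AAV_Null (right, blue), with a grey line joining the channels of 1 array and a black bar at the mean of 4. Both Enho panels show 4 AAV_Cre levels below all 4 AAV_Null levels, and in the other panels the groups overlap.

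Fgf21 did not pass, and its ratio stood apart on 1 array. Its probe, at chr7:52869305-52869364 (mm9, minus strand), had log2 levels of 8.42, 9.96, 7.68 and 7.27 in RNA labelled AAV_Cre, against 8.70, 8.52, 8.02 and 7.43 in RNA labelled AAV_Null. The AAV_Cre level on array 2 was above all others, and the groups overlapped. The log2 ratios were -0.28, 1.45, -0.34 and -0.16. The fitted value was 0.17 ± 0.29 (SE, n = 4, interval -0.59 to 0.92), at an adjusted p of 0.764. Without array 2 it was -0.26, at an adjusted p of 0.348, so the sign rested on that array.

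Gdf15 had its highest ratio on the same array. Its probe, at chr8:73153293-73153352 (minus strand), had log2 levels of 16.36, 15.81, 14.90 and 14.17 in RNA labelled AAV_Cre, against 16.24, 14.61, 14.62 and 13.92 in RNA labelled AAV_Null. The groups overlapped, since levels of both treatments were highest on array 1 and lowest on array 4, while AAV_Cre was the higher channel on all 4 arrays. The log2 ratios were 0.12, 1.20, 0.28 and 0.25, and the fit gave 0.46 ± 0.18 (SE, n = 4, interval -0.017 to 0.95) at an adjusted p of 0.233. With array 2 left out Gdf15 had 0.19, at an adjusted p of 0.390. It passed in 1 alternative, with arrays centred on the median in place of loess, at 0.65 and an adjusted p of 0.0139.

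Of the 10 genes, 6 had their highest ratio on array 2 (Fgf21, Igfbp1, Ahsg, Gdf15, Inhbe and Inhbc), against 20.9% of all genes. This count was chosen after the values were seen.

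The binding proteins of the insulin-like growth factors had opposite signs, and neither passed. Igfbp1, at chr11:7102442-7102501 (plus strand), had log2 levels of 17.02, 17.26, 17.25 and 16.44 in RNA labelled AAV_Cre, against 16.76, 16.25, 16.63 and 16.42 in RNA labelled AAV_Null. Its log2 ratios of 0.26, 1.01, 0.62 and 0.020 were all above 0, and the groups overlapped through array 4. The fitted log2 ratio was 0.48 ± 0.16 (SE, n = 4, interval 0.047 to 0.91), or 1.39-fold, at an adjusted p of 0.190, and without array 2 Igfbp1 had 0.29.

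Igfbp2 was slightly lower on all 4 arrays by its gene probe. The log2 levels were 14.36, 14.68, 14.73 and 14.41 in RNA labelled AAV_Cre, against 14.64, 15.15, 14.76 and 14.52 in RNA labelled AAV_Null, and these overlapped. The fitted log2 ratio was -0.22 ± 0.059 (SE, n = 4, interval -0.38 to -0.066), a fold of 0.857, at an adjusted p of 0.130, and median centring gave Igfbp2 -0.13. The second probe, the one that ends at the stop codon, shares no run over 5 bases with it. It had log2 levels of 13.25, 13.29, 13.41 and 12.70 in RNA labelled AAV_Cre, against 13.81, 13.98, 13.34 and 12.83 in RNA labelled AAV_Null. Its log2 ratio was -0.32 ± 0.062 (SE, n = 4), with a p of 0.0821 after adjustment over probes. That probe was above 0 on array 3, at 0.073, where the gene probe had -0.032.

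The fetuin genes are neighbours on chromosome 16 with 0 protein-coding genes between them, and neither passed for treatment or, after adjustment, for the dye effect. Ahsg, at chr16:22899415-22899474 (plus strand), had log2 levels of 18.28, 18.35, 17.71 and 17.32 in RNA labelled AAV_Cre, against 18.03, 17.87, 18.22 and 18.47 in RNA labelled AAV_Null. AAV_Cre was the higher channel on arrays 1 and 2 and the lower one on arrays 3 and 4. Of the 10 genes, 2 had 1 sign on arrays 1 and 2 and the other on arrays 3 and 4, in either direction: Ahsg, and Lect2 the opposite way round. Over all genes this share was 26.9%. The mean log2 ratio was 0.36 with AAV_Cre in Cy5 and -0.83 with AAV_Cre in Cy3, and the dye effect had a p of 0.00540 and an adjusted p of 0.0892. The size of this split depended on the normalisation. By the scanner's own processed ratio, Ahsg had log2 ratios of 0.0035, 0.12, -0.15 and -0.81 on arrays 1 to 4. The fitted treatment effect was -0.24 ± 0.12 (SE, n = 4, interval -0.56 to 0.085), at an adjusted p of 0.332. Without array 3 Ahsg had -0.40 and without array 4 it had -0.075, and median centring gave -0.077.

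Fetub, at chr16:22939736-22939795 (plus strand), had orientation means of the opposite signs to those of Ahsg. Its log2 levels were 14.22, 14.41, 15.07 and 14.72 in RNA labelled AAV_Cre, against 15.15, 15.10, 14.60 and 14.82 in RNA labelled AAV_Null. AAV_Cre was lower on arrays 1, 2 and 4 and higher on array 3. The mean log2 ratio was -0.80 with AAV_Cre in Cy5 and 0.18 with AAV_Cre in Cy3, and the dye effect had an unadjusted p of 0.00779 and did not pass after adjustment. The fit gave -0.31 ± 0.11 (SE, n = 4, interval -0.60 to -0.019), at an adjusted p of 0.202, and without array 4 Fetub had -0.17. Over all probes, 1.62% passed for a dye effect. For genes that split like this, the RNA pairs of the 2 orientations and the dyes cannot be told apart.

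Of the 10 genes, Lect2 had the fitted log2 ratio nearest 0. Its probe, at chr13:56643829-56643888 (minus strand), had log2 levels of 14.98, 15.27, 15.45 and 15.43 in RNA labelled AAV_Cre, against 15.03, 15.39, 15.43 and 15.34 in RNA labelled AAV_Null. The fitted log2 ratio was -0.015 ± 0.051 (SE, n = 4), with an interval of -0.15 to 0.12 and an adjusted p of 0.887. The interval leaves out changes larger than these bounds at the 95% level. Its sign changed in 4 of 21 other ways of processing.

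The activin subunit genes lie next to each other on chromosome 10, with 0 protein-coding genes between them, and had opposite signs. Inhbe, at chr10:126786719-126786778 (minus strand), had log2 levels of 11.87, 11.99, 11.60 and 11.42 in RNA labelled AAV_Cre, against 11.59, 11.44, 11.08 and 11.06 in RNA labelled AAV_Null. The groups overlapped, but AAV_Cre was the higher channel on 4 of 4 arrays, as for 12.1% of all genes. The log2 ratios were 0.28, 0.56, 0.52 and 0.36, and the fit gave 0.43 ± 0.072 (SE, n = 4, interval 0.24 to 0.62), or 1.35-fold, at an adjusted p of 0.0625. Inhbe passed in 7 of 19 other ways of processing with a test, among them the same fit at a threshold of 0.1. Over all 19, its adjusted p lay between 0.00740 and 0.277. Its mean log2 ratio was 0.42 with AAV_Cre in Cy5 and 0.44 with AAV_Cre in Cy3. Inhbc, at chr10:126793865-126793924 (minus strand), had log2 levels of 10.13, 10.42, 10.06 and 9.57 in RNA labelled AAV_Cre, against 10.46, 10.18, 10.32 and 9.96 in RNA labelled AAV_Null. AAV_Cre was the lower channel on arrays 1, 3 and 4, and the fit gave -0.18 ± 0.11 (SE, n = 4, interval -0.47 to 0.097), at an adjusted p of 0.377. Without array 1 Inhbc had -0.043 and without array 2 it had -0.33.

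**Figure D2:**
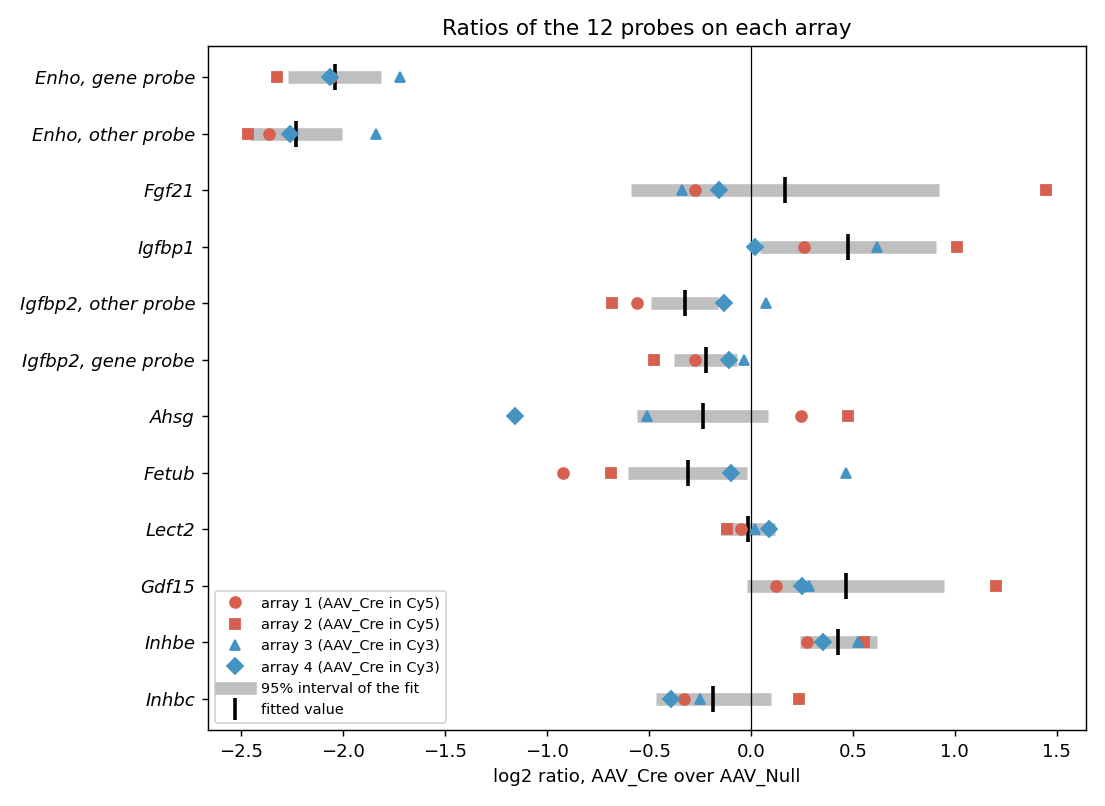
Log2 ratio of AAV_Cre over AAV_Null of the 12 probes, with a point per array (red where AAV_Cre was in Cy5, blue where it was in Cy3), a black tick at the fitted value and a grey bar for its 95% interval. Enho lies between -2.32 and -1.72 by its gene probe, Inhbe is between 0.28 and 0.56, and Ahsg lies right of 0 in red and left of 0 in blue.

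Genes linked to these hormones were counted in lists, each beside the 2.76% of all genes that passed in either direction. List counts at an unadjusted p under 0.05, given further below, stand beside 22.6% of all genes. Of 19 other liver-secreted factors, 1 rose, 1 fell and 17 did not pass, with a median log2 ratio of 0.018. Tsku, which encodes the secreted protein tsukushi, had log2 ratios between 0.65 and 1.25 on the 4 arrays. It rose by 0.92 ± 0.13 (SE, n = 4), or 1.89-fold, at an adjusted p of 0.0461. Selenop, the plasma carrier of selenium, had log2 ratios of -0.30, -0.45, -0.80 and -0.94. It fell to 0.649 of its AAV_Null level (log2 ratio -0.62 ± 0.059, SE, n = 4), at an adjusted p of 0.0227. Both missed the threshold whenever 1 array was left out, with Tsku between 0.77 and 1.06 and Selenop between -0.66 and -0.59. Tsku also missed it with an offset of 16 (adjusted p 0.0734), and Selenop with no dye effect (adjusted p 0.0746). Angptl8, an insulin-responsive inhibitor of lipoprotein lipase, had 0.80 ± 0.14 at an adjusted p of 0.0669, and Fgf1 had -0.44 ± 0.075 at an adjusted p of 0.0635 (SE, n = 4 each).

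No gene passed in the lists around adropin, FGF21, the IGFs, the activins, the fetuins and LECT2. Under other ways of processing, up to 4 genes of such a list passed in 1 direction, and 0 of the fetuin and LECT2 lists. For adropin, 0 of 10 linked genes passed, with a median of -0.0040 and 3 at an unadjusted p under 0.05. Among them Gpr19, a receptor proposed for adropin, had -0.15 ± 0.059, Rora, a nuclear receptor, had 0.34 ± 0.089, and Cntnap1 had 0.80 ± 0.13 at an adjusted p of 0.0548 (SE, n = 4 each). For FGF21, 0 of 17 genes of its receptors and of the fatty acid sensor PPARα passed, with a median of -0.11 and 6 at an unadjusted p under 0.05. Klb, which encodes β-Klotho, had 0.081 ± 0.065, and Fgfr4, the main FGF receptor of hepatocytes, had -0.36 ± 0.056 at an adjusted p of 0.0536. Vnn1, a pantetheinase and PPARα target, had 1.12 ± 0.19 at an adjusted p of 0.0622, and Creb3l3, a hepatic activator of Fgf21, had -0.26 ± 0.051 at 0.0791 (SE, n = 4 each).

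Of 15 genes of the IGF axis, 0 passed, with a median of -0.029 and 6 at an unadjusted p under 0.05. Igfals, whose product holds IGF in a large plasma complex, had -0.37 ± 0.055 at an adjusted p of 0.0513, and Igf1 had -0.24 ± 0.082 at 0.188. The binding protein genes Igfbp3 and Igfbp6 had values of the other sign, 0.33 ± 0.070 at 0.0911 and 0.29 ± 0.080 at 0.136 (SE, n = 4 each). Of 16 insulin- and FOXO-responsive genes, which like Igfbp1 follow insulin, 0 passed, with a median of -0.049 and 3 at an unadjusted p under 0.05. Pck1, of gluconeogenesis, had -0.25 ± 0.083 at an adjusted p of 0.181 (SE, n = 4). Of 14 genes of activin and TGF-β-like signalling, 0 passed, with a median of 0.14 and 7 at an unadjusted p under 0.05. Tgfbr3, a co-receptor for inhibin, had 0.37 ± 0.054 at an adjusted p of 0.0502, and Acvr2b, an activin receptor, had -0.52 ± 0.12 at 0.109. The activin subunit genes Inhba and Inhbb had 0.36 ± 0.096 at 0.132 and 0.17 ± 0.060 at 0.204 (SE, n = 4 each). Inhbb had log2 ratios of 0.71, 0.50, -0.26 and -0.29 on arrays 1 to 4, so its sign differed between the dye orientations. Among 9 cystatin relatives and chromosomal neighbours of the fetuins, 0 passed and 0 had an unadjusted p under 0.05. Cst3 had the smallest p there, at -0.11 ± 0.060 and an adjusted p of 0.366. Of 3 LECT2 receptors, 0 passed and 2 had an unadjusted p under 0.05. Tek had -0.15 ± 0.053 at an adjusted p of 0.198.

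Fgf21 and Gdf15 are both targets of stress pathways. Of 15 genes of ATF4 and the integrated stress response, 0 passed, with a median of 0.014 and 4 at an unadjusted p under 0.05. Asns, asparagine synthetase, had log2 ratios of 1.29, 0.41, 2.85 and 1.49, with a fit of 1.51 ± 0.27 (SE, n = 4) at an adjusted p of 0.0688. Atf4 had -0.025 ± 0.051 and Trib3, another Tribbles gene, had -0.36 ± 0.080 at an adjusted p of 0.0981 (SE, n = 4 each). On arrays 1 to 4 Trib3 had log2 ratios of -0.59, -0.97, 0.11 and 0.023, so its sign differed between the dye orientations. Of 17 targets of p53, of which Gdf15 is another, 9 rose and 8 did not pass, with a median of 0.80. With 1 array left out, 0 to 2 of them passed as higher, with 1, 0, 2 and 0 without arrays 1, 2, 3 and 4. Phlda3, Cdkn1a, Ccng1 and Tnfrsf10b rose by 2.28, 1.46, 1.01 and 0.93, against 0.46 for Gdf15, which did not pass. This pattern was known from earlier results of these data.

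**Figure D3:**
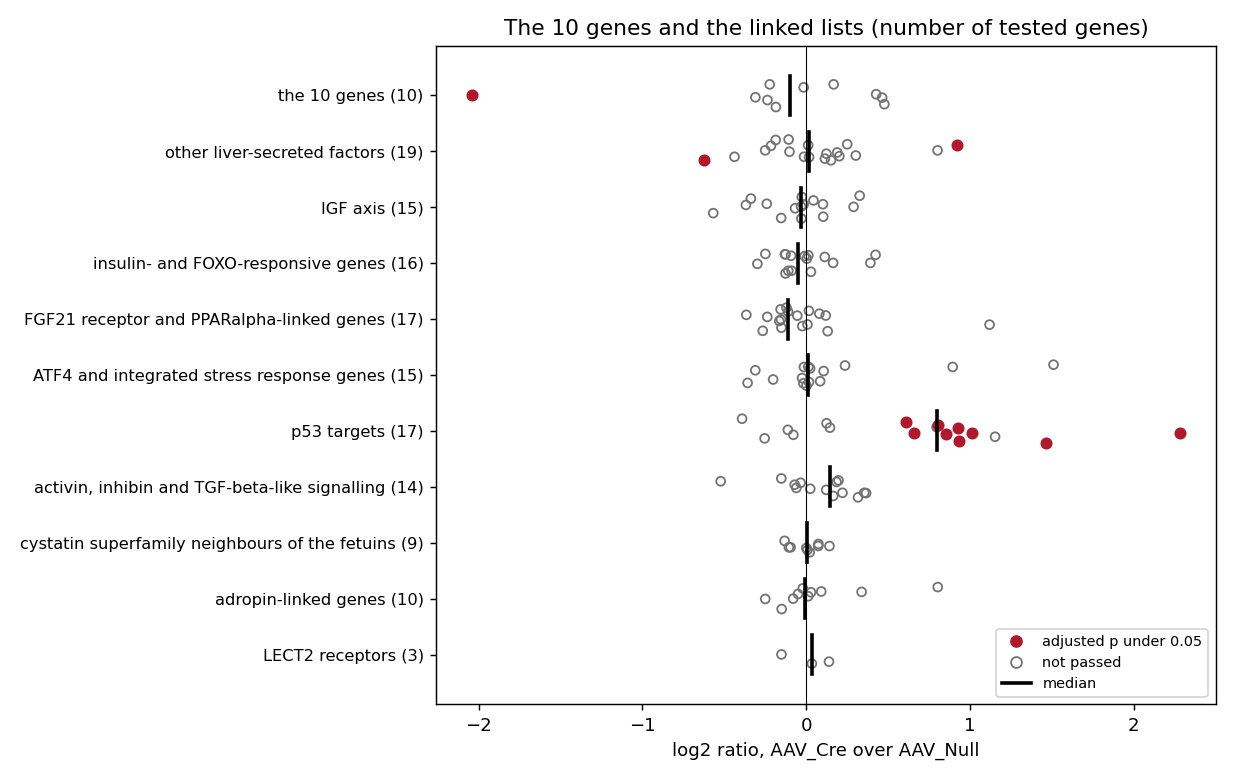
Fitted log2 ratio of AAV_Cre over AAV_Null for each tested gene of the 10 hormones and of the linked lists, with filled points for genes past an adjusted p of 0.05 and a bar at each median. Among the linked lists, called genes stand in the p53 targets and, with Tsku and Selenop, in the other liver-secreted factors.

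The conventionally named genes with ratios most like those of Enho were found by the distance between log2 ratios over the 4 arrays. Of 15704 other genes, those without a conventional name, such as a clone, accession or probe name, were left out before ranking. Among the rest, the nearest was Slc22a7, an organic anion transporter, at a distance of 0.397. It was followed by Nox4, an NADPH oxidase, at 0.905, Gas2 at 1.09, Cyp2c23, a cytochrome P450, at 1.47, and Clec2h at 1.59. Slc22a7 had log2 ratios of -2.21, -2.23, -1.70 and -2.42 on arrays 1 to 4. The fitted values were -2.14, -2.36, -1.55, -1.34 and -1.29 in the order given. A distance of this kind takes the size of the change into account, so the list holds genes that fell strongly.

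**Figure D4:**
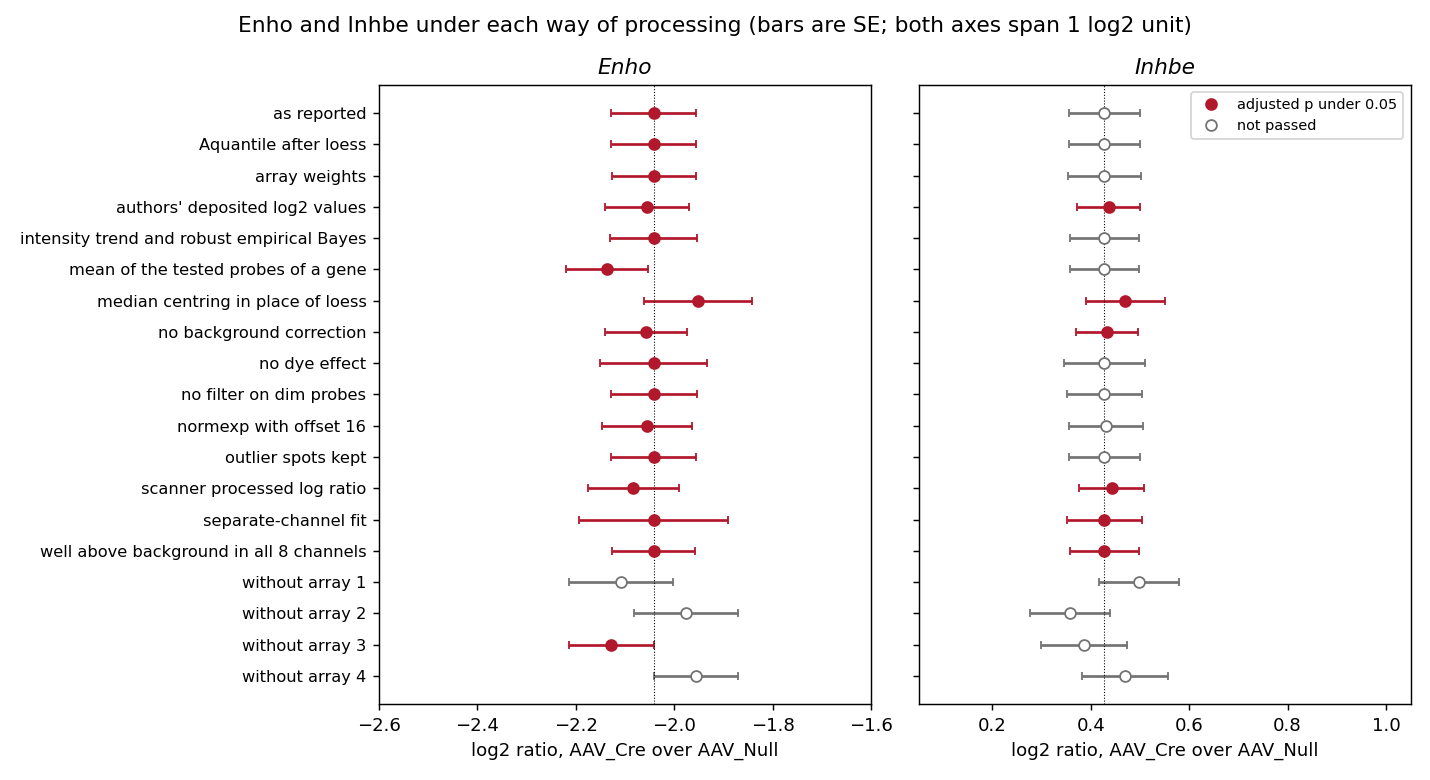
Fitted log2 ratio of AAV_Cre over AAV_Null (SE bars) of Enho and Inhbe as reported and under other ways of processing, with filled points where the adjusted p was under 0.05. Enho keeps near -2 throughout and loses the call without arrays 1, 2 or 4, and Inhbe lies between 0.36 and 0.50.

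The tissue was checked against cell markers. All 12 hepatocyte markers were well above background in all 8 channels, and 0 of 12 were called. Their summed log2 level was 20.12 to 20.76 in RNA labelled AAV_Cre and 20.40 to 20.79 in RNA labelled AAV_Null. The 9 Kupffer cell and macrophage markers had a median log2 ratio of -0.22 with 0 called, at summed levels of 14.85 to 15.80 in RNA labelled AAV_Cre and 15.33 to 15.98 in RNA labelled AAV_Null. Of 6 stellate cell markers tested, 1 rose (Col3a1, log2 ratio 0.47, adjusted p 0.0439), and the median log2 ratio was 0.30 with a range of 0.040 to 0.47, at summed levels of 15.59 to 16.03 in RNA labelled AAV_Cre and 15.08 to 15.87 in RNA labelled AAV_Null. Of the 8 endothelial markers, 0 were called, with a median of -0.17. The 5 neutrophil markers tested were all below 0, with a median of -0.25 and a range of -0.56 to -0.14. None of the cholangiocyte, T and NK cell, B cell, neutrophil or erythroid markers was called, and 2 of 6, 3 of 6, 3 of 4, 4 of 5 and 2 of 4 of those listed were well above background in all 8 channels. The part of cell makeup in the ratios above was not tested. Each array held 43020 non-control spots, with 51.0% to 58.7% well above background per channel and 0 saturated. Across genes, which are not independent replicates, the log2 ratios of arrays 1 and 2 had a correlation of 0.66 and those of arrays 3 and 4 one of 0.49.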

How the data were processed

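Per the file headers, Agilent Feature Extraction 11.5.1.1 measured the intensity and local background of each spot in both dyes. The deposited log10 ratio, Cy5 over Cy3, rests on background-subtracted and dye-normalised intensities. The deposited table of log2 values named limma in the submitters' processing notes, without its steps. Its slopes against the scanner log10 ratio were 3.34, 3.33, -3.29 and -3.39 on arrays 1 to 4, so it holds AAV_Cre over AAV_Null on a log2 scale. Its medians were -0.022, -0.038, 0.035 and 0.041, and its normalisation is unknown.

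The ratios were computed here from mean intensities and median backgrounds, in R 4.3.3 with limma 3.58.1, using normexp (offset 50) and then loess with control spots at weight 0. Outlier-marked spots were dropped unless a probe would lose all its spots, and spots of 1 probe were averaged. Probes were kept when well above background in at least 3 of 4 channels of a treatment and unmarked on at least 3 arrays of both orientations, which left 20337 probes. The ratio was fitted with a dye effect by lmFit and eBayes (2 residual and 2.66 prior degrees of freedom). The brightest tested probe stood for a gene, and Benjamini-Hochberg adjustment ran over 16081 genes, with a threshold of 0.05. Channel levels are log2 intensities after loess and Aquantile, and no level is compared between genes. Average intensity was compared only between probes of the same gene, and marker levels were summed over the tested genes of a list. With 1 slide, slide could not be a batch. The number of arrays limits the precision. The p-values rest on how far arrays of 1 orientation differ from each other, which may be technical.

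The 10 genes, the linked lists and the rule for named genes were chosen with earlier results of these data known. The rule took all 10 genes, Trib1, and up to 4 called genes per list or the one of smallest p. It also took the 5 conventionally named genes most like Enho. Other list genes were named after their values were seen. Symbols were updated through RefSeq (GRCm38.p6), by accession for 27508 probes. Probe coordinates (mm9) were copied from the array files. The fit was tested on simulated data. Alternatives covered background, normalisation, filters, outlier spots, dye term, separate channels (statmod 1.5.0), empirical Bayes, array weights, several probes, threshold, orientation and each array left out. The labels describe a reverse transcription and a low input kit, and which was used was not settled.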

Additional observations from a re-analysis of the deposited data

Results flagged for a closer look

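In 45 groups of 4 values, 2 had a single value set apart. Chance alone sets 1 in 20 such groups apart, or 2.25 here. Fgf21 had a log2 ratio of 1.45 on array 2, against -0.34 to -0.16 on the other arrays, a gap of 0.897 of the whole range. Gdf15 reached 1.20 on array 2, while the other arrays lay between 0.12 and 0.28, a gap of 0.852 of the range. The cause of either was not tested.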

How the results depend on the processing

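Every fitted ratio pairs both treatments within its array, and the numbers 1 to 4 are those of the arrays. A further block by replicate number could not be fitted, since no number is shared between arrays. Enho lay between -2.19 and -1.89 under every alternative run. Among alternatives with a test, its call was lost only when array 1, 2 or 4 was left out, with a range of -2.13 to -1.96 over the 4 fits without 1 array. Trib1 ranged from 0.85 to 1.03 in those fits and passed in none of them. Without 1 array the genes called numbered 0 to 22 higher and 0 to 15 lower, and 0 to 1 of the 10 hormones were lower. Those fits have fewer residual degrees of freedom.
Against 287 genes higher and 157 lower as reported, the counts were 749 and 538 at a threshold of 0.1, 827 and 555 with the authors' deposited log2 values, 824 and 579 with no background correction, 458 and 271 with the scanner's processed ratio, and 1292 and 1237 in the separate-channel fit. They were 183 and 87 with no dye effect and 141 and 61 with an offset of 16. Median centring gave 528 higher, and no filter on dim probes gave 97 lower.
Of the 10 hormones, 3 were called higher with median centring (Igfbp1, Gdf15 and Inhbe), 2 in the separate-channel fit (Igfbp1 and Inhbe), and 1, Inhbe, at a threshold of 0.1, with the deposited values, with no background correction, with the scanner's ratio or with probes well above background in all 8 channels. The separate-channel fit called 3 lower (Enho, Fetub and Igfbp2).
Signs reversed as follows. Ahsg was 0.36 on the Cy5 arrays alone. On the Cy3 arrays alone Fetub was 0.18, Fgf21 -0.25 and Lect2 0.053. Lect2 was 0.070 with median centring. Over the fits without 1 array, Fgf21 ranged from -0.26 to 0.60, Lect2 from -0.033 to 0.0029 and Atf4 from -0.051 to 0.0014. Most of the 380 counts over the linked lists and alternatives were set against a reported count of 0, where a multiple has no meaning. By a rule of 1.5 times the reported count, 296 stayed and 84 did not. The cause of these changes was not tested.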
